A study of Mus musculus with 8 samples.

Results

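The genes described here are 7 members of the BCL2 family, taken by symbol from the 35087 named gene rows of each table: the anti-apoptotic members Bcl2l1, Mcl1, Bcl2 and Bcl2l2 (4 genes) and the pore-forming effectors Bax, Bak1 and Bok (3 genes). All 7 were present in every table and all 7 passed the filter on low counts, which kept 15102 genes. RNA of granulosa cells, the follicle's support cells around the oocyte, was sequenced with the Smart-seq2 method after laser microdissection from mouse ovary cryosections. The conditional knockout (cKO, n = 2 libraries) carried Hif1a alleles flanked by loxP sites and Foxl2-CreERT2, a tamoxifen-inducible Cre recombinase driven by the granulosa cell gene Foxl2. The wild type group (WT, n = 6 libraries) carried the same Hif1a flox/flox alleles without Cre, and both groups received tamoxifen at 100 mg/kg daily for 5 days from 3 weeks of age, with ovaries taken 7 days after the last dose. In the genotype field cKO is given as a knockdown, and the library names begin with cKO for all 8 libraries, so groups were taken from the titles. Which animal or follicle a library came from is not in the labels, so some libraries may share an animal, and p-values measure only the spread between these libraries.

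Proteins of the BCL2 family decide whether the outer membrane of the mitochondrion stays closed in a stressed cell. Bax and Bak can assemble into pores that release cytochrome c, which starts the caspase cascade, and Bok is a related effector. Bcl-XL (encoded by Bcl2l1), Mcl-1, Bcl-2 and Bcl-w (encoded by Bcl2l2) bind the effectors and the BH3-only proteins that activate them, and keep the membrane intact. Granulosa cell apoptosis is the main form of cell death in follicles that are lost by atresia. The title of the series names Bcl-XL as a gene product promoted by HIF1, the oxygen-regulated transcription factor of which Hif1a encodes a subunit. The data used here are levels of RNA and not of protein, and much of the control of Mcl-1 and of the effectors acts on the proteins.

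Total estimated reads on named genes were 2054739 and 651656 in cKO replicates 1 and 2, and from 1594979 to 4719468 in the 6 WT libraries, so cKO replicate 2 was the shallowest library. The limit that 3 reads set was 4.10 CPM in cKO replicate 2, 1.52 CPM in cKO replicate 1 and at most 1.65 CPM in WT. It covers counting error only, as reads were amplified without molecular identifiers. All 10 granulosa markers were detected in every library, with a summed level of 4737 and 1609 CPM in cKO and from 3289 to 58860 CPM in WT. The summed levels in cKO and WT were 30.1 to 52.3 against 6.57 to 1772 CPM for 10 oocyte markers, 479 to 1923 against 21.4 to 1355 CPM for 10 theca and stroma markers, and 261 to 340 against 87.1 to 431 CPM for 8 endothelial markers. They were 28.7 to 52.3 against 2.66 to 29.1 CPM for 7 leukocyte markers and 57.4 to 419 against 43.4 to 376 CPM for 5 red blood cell markers. No marker was at 0 in all 8 libraries. The mitochondrial genome took 8.87% and 10.5% of reads in cKO and from 1.42% to 3.65% in WT. At least 5 reads were found for 12847 and 12120 genes in cKO and for 13597 to 14727 genes in WT. The part of the marker sums in the values below was not tested. Leaving out the genes of the mitochondrial genome moved each member's log2 fold change of cKO over WT by far less than its SE (Bcl2l1 was -1.30 with and without them). A fit with the detected gene count as a covariate moved several members, and its values are given with each gene except Bok, which stayed near 0 (0.02).

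Hif1a itself had a normalised read count (CPM after TMM scaling, as for all CPM values here unless said) of 22.3 and 13.7 CPM in cKO replicates 1 and 2, against 37.9, 35.5, 69.8, 96.5, 106.2 and 49.5 CPM in WT replicates 1 to 6. Both cKO libraries lay below every WT library, as for 6.41% of all genes. The log2 fold change was -1.84 ± 0.58 (SE, edgeR adjusted p = 0.369; DESeq2 adjusted p = 0.058). The detected gene count as a covariate gave -0.32.

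The 7 members sit on 6 chromosomes (mm10, positions from GENCODE M21 on GRCm38). Bcl2l1 spans chromosome 2 from 152780668 to 152831728 on the minus strand, Mcl1 chromosome 3 from 95658788 to 95663176 on the plus strand, and Bcl2l2 chromosome 14 from 54883377 to 54888234 on the plus strand. Bcl2 spans chromosome 1 from 106538178 to 106714274 on the minus strand, and Bok the same chromosome from 93685660 to 93695764 on the plus strand. Bax spans chromosome 7 from 45461697 to 45466898 on the minus strand, and Bak1 chromosome 17 from 27019810 to 27029009 on the minus strand. Since the deleted gene encodes a subunit of HIF1, promoter windows of RefSeq (GRCm38.p6, 250 bases before to 50 after a start site) were searched on both strands for the core letters of the HIF site, ACGTG or GCGTG. Of the 9 windows of the 7 members, 3 held such letters, and they belonged to 2 genes, Bcl2l1 and Bax. Among all 32851 windows, 43.8% held them. Bcl2l1 has 3 windows: one held GCGTG on the minus strand of the gene, 86 bases before the start, one held GCGTG 24 bases into the transcript, and one held neither. The Bax window held ACGTG within 2 copies of the E-box letters CACGTG, which reads the same on both strands and which 7.15% of all windows hold. The FOXO letters GTAAACA (3.65% of all windows) and the STAT letters TTCNNNGAA (8.30%) were in none of the 9 windows. The 250 bases before the start are given for Bcl2l1 and Bax, the 2 genes with the letters there, and for Mcl1, an anti-apoptotic member without them, from chr2:152831729-152831978 (minus strand), chr7:45466899-45467148 (minus strand) and chr3:95658471-95658720 (plus strand), with the HIF core, in either orientation, and the E-box letters that hold it in capitals.
Bcl2l1: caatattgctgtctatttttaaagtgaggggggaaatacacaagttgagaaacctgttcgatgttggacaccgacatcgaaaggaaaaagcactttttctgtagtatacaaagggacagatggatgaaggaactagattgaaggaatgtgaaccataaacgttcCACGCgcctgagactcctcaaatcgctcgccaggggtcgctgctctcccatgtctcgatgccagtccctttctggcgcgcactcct
Bax: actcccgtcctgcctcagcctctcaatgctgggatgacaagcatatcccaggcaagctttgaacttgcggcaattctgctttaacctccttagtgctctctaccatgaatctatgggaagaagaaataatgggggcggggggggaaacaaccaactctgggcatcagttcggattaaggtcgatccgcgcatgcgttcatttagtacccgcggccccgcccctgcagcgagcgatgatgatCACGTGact
Mcl1: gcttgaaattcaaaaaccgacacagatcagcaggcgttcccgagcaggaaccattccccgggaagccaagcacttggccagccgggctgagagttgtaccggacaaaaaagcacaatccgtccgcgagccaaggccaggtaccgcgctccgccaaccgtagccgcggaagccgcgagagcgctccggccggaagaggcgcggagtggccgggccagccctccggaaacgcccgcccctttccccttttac
A match is a description of letters and not of binding.

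Levels of different genes were compared by the deposited TPM, which divides by transcript length. Bax had the highest TPM of the 7 members in each of the 8 libraries and Bok came next. Summed effector RNA exceeded summed anti-apoptotic RNA in both groups. Bax made up from 70.85% (cKO replicate 2) to 84.22% (WT replicate 2) of the effector sum, and the effector Bak1 ranked 5 or 6. Bax had 367 and 134 TPM in cKO replicates 1 and 2, and a median of 290 TPM in WT, from 262 to 446 TPM. Bok, which is known for high levels in reproductive tissues, had 88.4 and 51.1 TPM in cKO and a median of 73.6 TPM in WT, from 48.5 to 89.5 TPM. The same top pair was found in 8 of 8 libraries when CPM was divided by the longest coding transcript instead, a choice made after the data were seen. Bax stood above Bok by a median ratio of 4.15 over the 8 libraries, and this ratio ranged from 2.62 to 5.98. Bok stood above Bcl2l1 in all 8 libraries as well, but by as little as 1.08 times.

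In TPM Bcl2l1 ranked 3 in 5 of the 8 libraries and 4 in the others, which were both cKO libraries and WT replicate 1. By CPM over the longest coding transcript Bcl2l1 ranked 3 in all 8 libraries, so the lower rank depended on the scale. Its level was 16.5 and 16.6 TPM in cKO, against 20.6, 33.1, 50.9, 44.8, 36.4 and 48.0 TPM in WT replicates 1 to 6. In TPM, both cKO libraries lay below every WT library. Of 15102 genes, 7.07% were lower and 5.37% higher in cKO with no overlap on this scale. Mcl1 followed with 20.5 and 5.58 TPM in cKO and a median of 16.2 TPM in WT, from 11.9 to 24.9 TPM. It lay below Bcl2l1 in 7 of 8 libraries, with a median ratio of Bcl2l1 to Mcl1 of 2.38.

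The lower end of the order was not fixed. Bcl2 ranked between 3 and 7 among the libraries, Bak1 5 or 6, and Bcl2l2 between 5 and 7. Bcl2 was above Bak1 in 3 of 8 libraries, and Bak1 above Bcl2l2 in 5 of 8. The neighbours Mcl1 and Bcl2, Bcl2 and Bak1, and Bak1 and Bcl2l2 therefore did not keep their order across libraries.

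**Figure D1:**
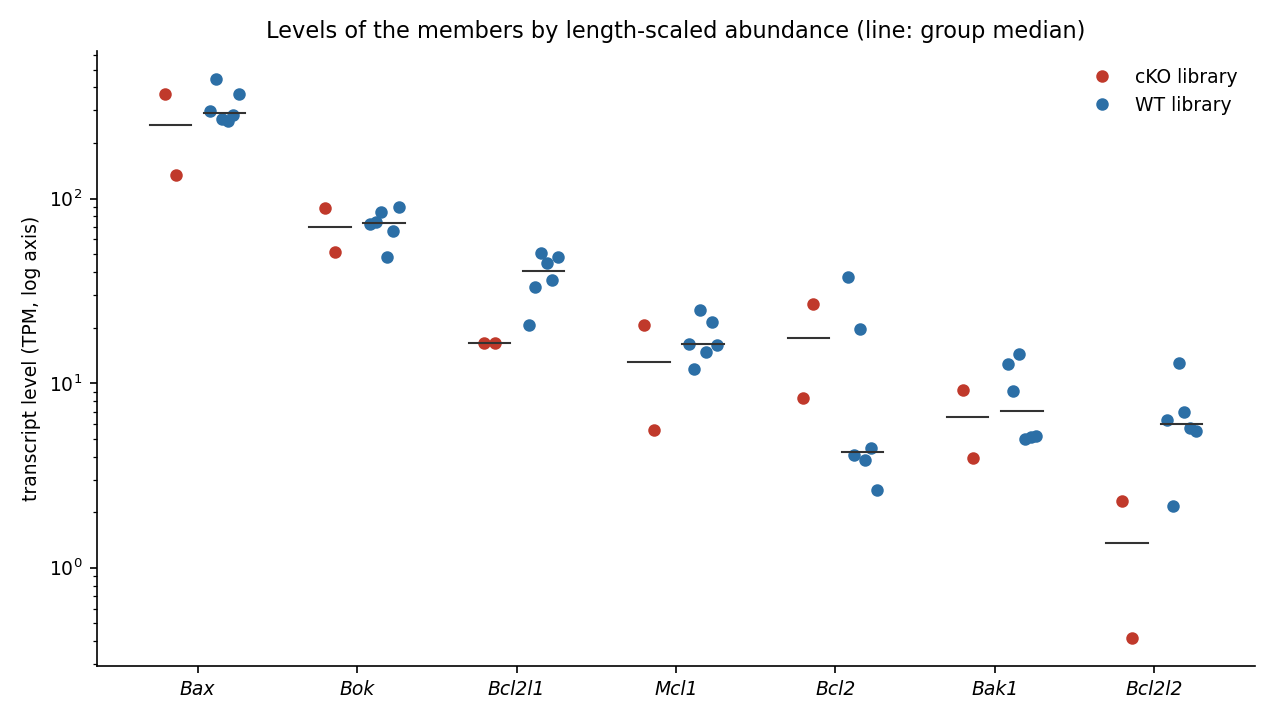
TPM on a log axis for each member, from the highest mean level to the lowest, with 1 point per library (2 cKO in red, 6 WT in blue) and a line at the group median. Bax and Bok stood highest in all 8 libraries, and the 2 cKO points of Bcl2l1 (16.5 and 16.6 TPM) lay below the 6 WT points.

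The TPM values also carry the transcript mix that the quantification chose. The length behind a TPM, in bases, follows from the ratio of reads to TPM. For Mcl1 it was 1670 in cKO replicate 1 and 3192 in cKO replicate 2, against 1605 in WT replicate 1 and from 3184 to 3225 in the other 5 WT libraries. GENCODE lists 2 Mcl1 transcripts, of 3418 and 858 bases, so the shorter one took part of the reads in 1 library of each group. WT replicate 1, the lowest WT library in Mcl1 CPM (26.9), had 16.3 TPM, above WT replicates 2, 4 and 6. For Bcl2 the length was 3401 and 2852 in cKO and from 2911 to 4117 in WT, nearer to the single-exon transcript of 2841 bases than to the spliced transcript of 7191 bases. For Bcl2l1 it was 2330 and 1656 in cKO, the second from 20 reads, and from 2134 to 2241 in WT. The longest of its 9 annotated transcripts has 2568 bases. The tables hold 1 row per gene, so the anti-apoptotic and pro-apoptotic splice forms of Bcl2l1 were not told apart.

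Of the summed TPM of the 4 anti-apoptotic members, Bcl2l1 took 34.6% and 33.5% in cKO replicates 1 and 2, and 25.5%, 64.6%, 47.0%, 63.8%, 53.5% and 66.4% in WT replicates 1 to 6. The cKO shares were below those of 5 WT libraries and above that of WT replicate 1. The share of Bcl2 was 17.4% and 54.4% in cKO, against 46.6% in WT replicate 1 and 3.64% to 18.1% in WT replicates 2 to 6. The 4 anti-apoptotic genes summed to 47.6 and 49.5 TPM in cKO and from 51.2 to 108.2 TPM in WT. The 3 effectors summed to 465 and 189 TPM in cKO and from 315 to 529 TPM in WT. The ratio of the first sum to the second was 0.102 and 0.262 in cKO, and its median in WT was 0.201, from 0.0967 to 0.294. Both cKO ratios lay inside the WT range. These sums are descriptions with no test.

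**Figure D2:**
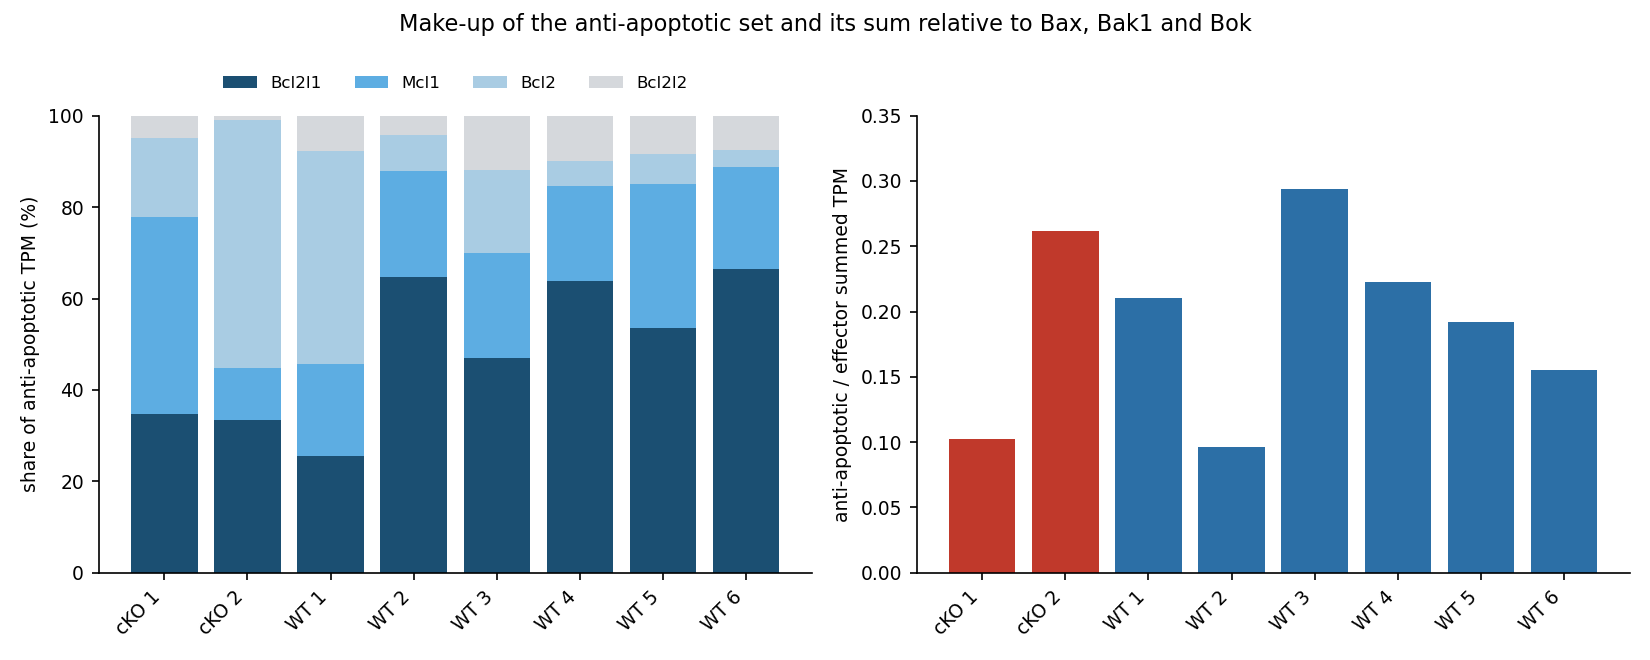
Left, share of each anti-apoptotic member in their summed TPM (%) by library. Right, summed TPM of Bcl2l1, Mcl1, Bcl2 and Bcl2l2 over that of Bax, Bak1 and Bok. Bcl2l1 took 33.5% to 34.6% in cKO, below 5 of the 6 WT libraries, and the ratios of cKO (0.102 and 0.262) lay within the range of WT.

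The comparison of cKO with WT asked whether these genes differ when Hif1a can be excised. It was tested across all genes with edgeR's quasi-likelihood test, and p-values were adjusted over all 15102 genes. No member passed an adjusted p of 0.05. Over all genes edgeR called 0 (0%), while 1342 genes (8.89%) were lower and 513 (3.40%) higher in cKO at an unadjusted p under 0.05. Of the 7 members, 2 had an unadjusted p under 0.05, Bcl2l1 and Bcl2l2, both lower in cKO. DESeq2 called 274 of the 6881 genes with an adjusted p (3.98%), and 0 of the 5 members among them. It gave none to Bcl2l2 and Bak1. Of the members, 5 of 7 had a fold change below 0, against 52.7% of all genes, and the members' median log2 fold change was -0.25, against -0.08 over all genes. With DESeq2's size factors the median over all genes was 0.05, so a value of that size, such as the 0.01 of Bok, has no direction.

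Bcl2l1 encodes Bcl-XL. It had 52.3 and 27.3 CPM in cKO replicates 1 and 2, against 47.3, 112.1, 108.8, 121.4, 91.7 and 114.6 CPM in WT replicates 1 to 6. Of the WT libraries, 5 lay at 91.7 CPM or higher, above both cKO libraries, and WT replicate 1 lay between the cKO values. It averaged 39.8 ± 17.6 CPM (SD) over 2 cKO libraries and 99.3 ± 27.3 CPM (SD) over 6 WT libraries, and edgeR's log2 fold change was -1.30 ± 0.49 (SE), with a 95% interval from -2.35 to -0.25 (unadjusted p = 0.019, edgeR adjusted p = 0.372). DESeq2 gave -1.19 with an adjusted p = 0.101. Whether the groups overlapped depended on the scale, as they did not in CPM without TMM factors (50.1 and 30.7 in cKO, 53.9 in WT replicate 1, 87.7 or more in the others) nor in TPM. Without TMM factors 6.97% of all genes were lower and 6.03% higher in cKO with no overlap, and with them 6.41% were lower. The 3 libraries with the lowest Bcl2l1 were also the 3 with the lowest summed granulosa markers, at 4737 and 1609 CPM in cKO, with 3289 CPM in WT replicate 1, against 7569 CPM or more in the other WT libraries. Inha was the highest of the 10 markers in every library. Of the 10, 9 had a log2 fold change below 0, against 52.7% of all genes. Their median was -2.04, against -0.08 over all genes. DESeq2 called 4 of the 10 (Fshr, Inha, Hsd17b1 and Fst), against 3.98% of all genes with an adjusted p, and edgeR called 0. Fshr, Inha, Inhba, Cyp19a1, Hsd17b1, Fst and Nr5a2 each had their lowest WT value in WT replicate 1. Foxl2, Amh and Esr2 did not follow the sum. WT replicate 1 held 148.9 CPM of Foxl2, 766.5 of Amh and 335.7 of Esr2, each above WT replicates 4 to 6. Amh (610 CPM) and Esr2 (366.9 CPM) of cKO replicate 1 also lay above these, but its Foxl2 (126.4 CPM) lay below WT replicate 4. Foxl2 was lowest of all in cKO replicate 2 (88.8 CPM). The 3 libraries lowest in Bcl2l1 also held the fewest reads on named genes. They had 2054739 and 651656 in cKO and 1594979 in WT replicate 1, against 2330249 or more in the others. The part of the markers and of depth in the result was not tested. In such bulk samples, fewer cells of a type and less RNA per cell cannot be told apart. The log2 fold change was -1.92 with cKO replicate 1 left out and -0.99 with cKO replicate 2 left out, where the unadjusted p was 0.128 and the edgeR adjusted p 0.792. Restricted to replicates 1 and 2, the numbers found in both groups, it was -0.88 (unadjusted p = 0.176, edgeR adjusted p = 1.0). The covariate of detected genes gave -1.16 (unadjusted p = 0.216, edgeR adjusted p = 1.0).

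Mcl1 encodes a short-lived anti-apoptotic protein. It had 46.7 and 17.8 CPM in cKO, against 26.9, 58.0, 76.4, 59.7, 80.6 and 56.1 CPM in WT replicates 1 to 6. The pattern across libraries was that of Bcl2l1 in one respect, as 5 WT libraries lay above both cKO libraries and WT replicate 1 lay between them. It averaged 32.2 ± 20.5 CPM (SD) over 2 cKO libraries and 59.6 ± 19.0 CPM (SD) over 6 WT libraries, and edgeR's log2 fold change was -0.86 ± 0.52 (SE, 95% interval -1.98 to 0.27, edgeR adjusted p = 0.512). With the length behind the TPM as an offset the log2 fold change was -0.24. Leaving out cKO replicate 1 gave -1.81, leaving out cKO replicate 2 gave -0.42, and the libraries numbered 1 and 2 alone gave -0.29. The covariate of detected genes gave -0.14.

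Bcl2l2 encodes Bcl-w. It rested on few reads, 21.6 and 1 in cKO replicates 1 and 2 and from 39 to 121 in the WT libraries. Its level was 11.2 and 1.37 CPM in cKO, against 21.4, 11.2, 30.8, 29.3, 22.0 and 19.6 CPM in WT replicates 1 to 6. The value of cKO replicate 2 lay below the limit of 3 reads (4.10 CPM). The groups did not overlap after TMM scaling, but by a margin of 11.164 in cKO replicate 1 against 11.208 CPM in WT replicate 2, and they overlapped in TPM (2.29 in cKO replicate 1, 2.17 in WT replicate 2) and in CPM without TMM factors (10.5 and 9.52). It averaged 6.27 ± 6.93 CPM (SD) over 2 cKO libraries and 22.4 ± 7.09 CPM (SD) over 6 WT libraries, and edgeR's log2 fold change was -1.70 ± 0.75 (SE, 95% interval -3.32 to -0.09, unadjusted p = 0.040, edgeR adjusted p = 0.390). Leaving out cKO replicate 2 gave -1.07 (unadjusted p = 0.213, edgeR adjusted p = 0.792). The covariate of detected genes gave -0.76 (unadjusted p = 0.564, edgeR adjusted p = 1.0). With cKO replicate 1 left out, the cKO group held 1 read, and the fitted -4.05 gives no measured size. The overlapping readthrough gene Gm20521 held at most 10 reads in any library.

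Bcl2, the founding member of the family, was the one anti-apoptotic gene with a higher mean in cKO, and it varied most within WT. It had 38.6 and 76.5 CPM in cKO, against 113.7, 25.1, 64.3, 17.4, 19.7 and 8.29 CPM in WT replicates 1 to 6. The WT libraries spanned a 13.7-fold range, where those of the other 6 members spanned from 1.86-fold (Bok) to 2.99-fold (Mcl1). Both cKO values lay inside the WT range. It averaged 57.5 ± 26.8 CPM (SD) over 2 cKO libraries and 41.4 ± 40.4 CPM (SD) over 6 WT libraries, and edgeR's log2 fold change was 0.47 ± 0.78 (SE, 95% interval -1.20 to 2.15, edgeR adjusted p = 0.823). It was 1.11 without WT replicate 1, -0.15 without cKO replicate 2, -0.22 in the libraries numbered 1 and 2 alone and -1.13 with detected genes as a covariate.

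Bax, the effector that moves from the cytosol to the mitochondrion, had 329 and 95.6 CPM in cKO, against 213, 455, 166, 219, 212 and 262 CPM in WT replicates 1 to 6. The 2 cKO libraries lay on either side of 5 WT libraries, and WT replicate 2 lay above all others. It averaged 212 ± 165 CPM (SD) over 2 cKO libraries and 255 ± 103 CPM (SD) over 6 WT libraries, and edgeR's log2 fold change was -0.25 ± 0.54 (SE, 95% interval -1.41 to 0.90, edgeR adjusted p = 0.872). In linear terms the interval spans 0.376-fold to 1.87-fold. Leaving out cKO replicate 1 gave -1.47, leaving out cKO replicate 2 gave 0.32, and leaving out WT replicate 2 gave 0.01. The covariate of detected genes gave -0.08.

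Bak1 encodes Bak, the effector that resides in the mitochondrial outer membrane. It had 21.8 and 6.83 CPM in cKO, the second from 5 reads, against 23.1, 24.3, 24.2, 11.1, 10.4 and 9.82 CPM in WT replicates 1 to 6. The WT libraries lay at 23.1 CPM or more in replicates 1 to 3 and at 11.1 CPM or less in replicates 4 to 6, with cKO replicate 1 near the upper values and cKO replicate 2 under the lower ones. It averaged 14.3 ± 10.6 CPM (SD) over 2 cKO libraries and 17.2 ± 7.37 CPM (SD) over 6 WT libraries, and edgeR's log2 fold change was -0.21 ± 0.68 (SE, 95% interval -1.67 to 1.25, edgeR adjusted p = 0.916). Leaving out cKO replicate 1 gave -1.38, and leaving out cKO replicate 2 gave 0.30. The covariate of detected genes gave -0.67. Bak1 lies within Ggnbp1 on the opposite strand, which held 59 and 15 reads in cKO and from 22 to 124 in WT. The protocol does not mark strand, so reads of the 2 genes were not told apart where they overlap.

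Bok had 142 and 49.2 CPM in cKO, against 87.9, 136.1, 94.0, 73.0, 79.3 and 103.4 CPM in WT replicates 1 to 6. As for Bax, the cKO libraries lay on either side of the WT libraries, here of all 6. It averaged 95.6 ± 65.7 CPM (SD) over 2 cKO libraries and 95.6 ± 22.6 CPM (SD) over 6 WT libraries, and edgeR's log2 fold change was 0.01 ± 0.45 (SE, 95% interval -0.96 to 0.98, edgeR adjusted p = 0.994). Equal means here rest on 2 cKO libraries that differ 2.89-fold, and the log2 fold change became -1.02 with cKO replicate 1 left out and 0.52 with cKO replicate 2 left out.

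**Figure D3:**
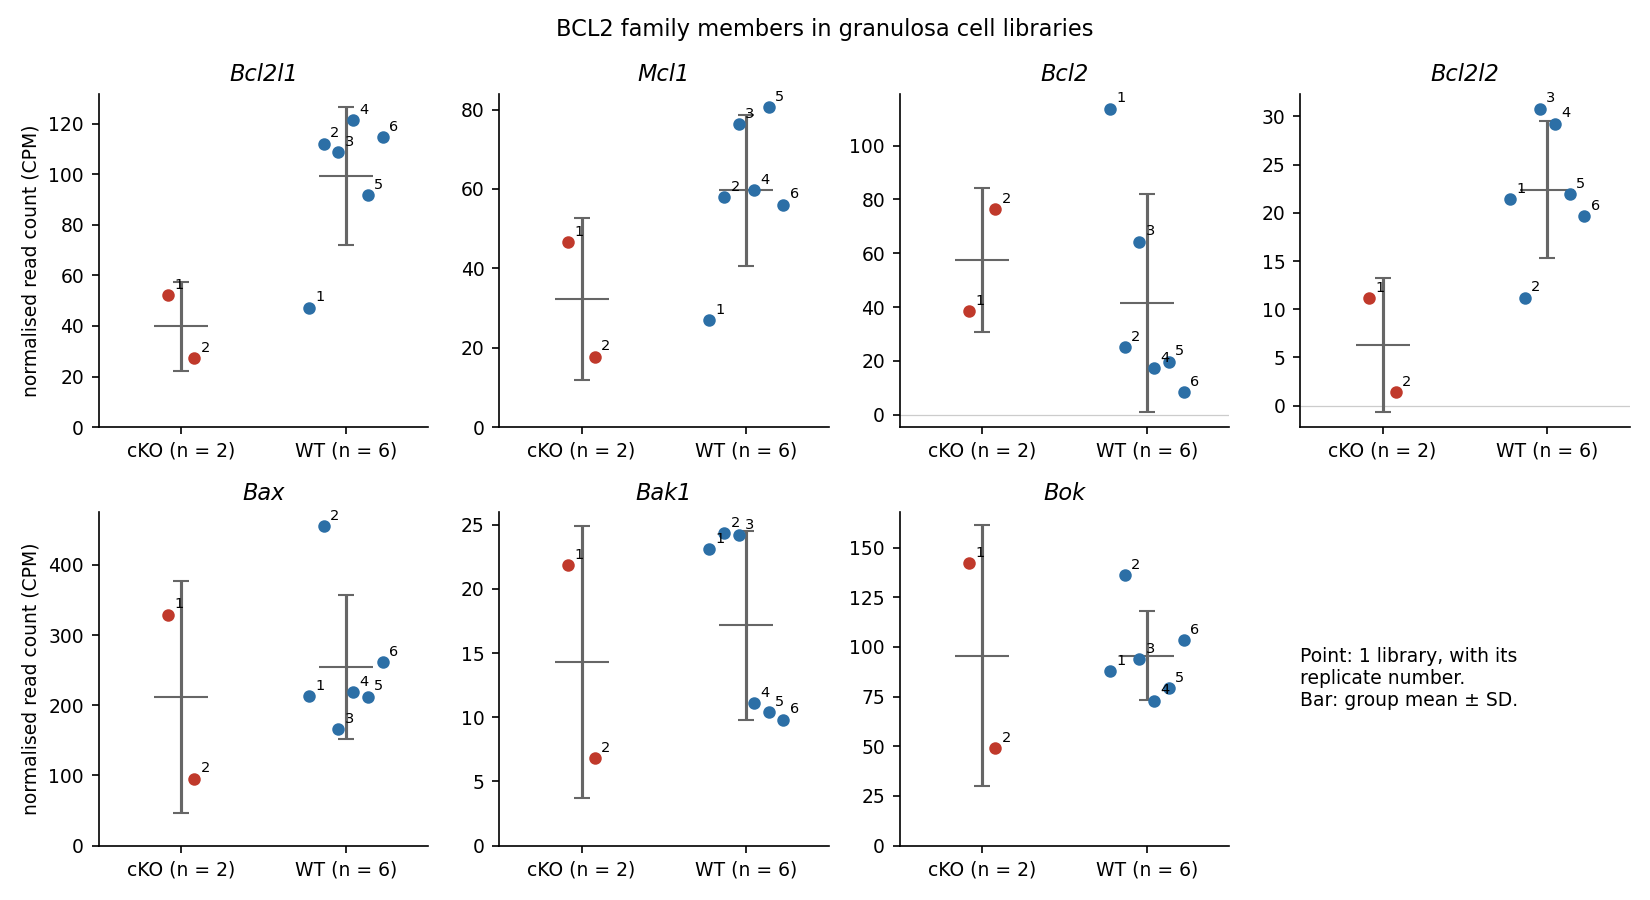
Normalised read count (CPM after TMM) of each member, with 1 point per library labelled by replicate number (2 cKO in red, 6 WT in blue), and the group mean ± SD. For Bcl2l1 and Mcl1 5 of 6 WT libraries lay above both cKO libraries. The cKO libraries were from 1.91-fold (Bcl2l1) to 8.17-fold (Bcl2l2) apart, with 2.63-fold for Mcl1. For Bax, Bak1 and Bok they were 3.44-fold, 3.20-fold and 2.89-fold apart.

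In 6 of the 7 members cKO replicate 1 was higher than cKO replicate 2, by 1.91-fold for Bcl2l1 and up to 8.17-fold for Bcl2l2, and Bcl2 was the exception. Apart from WT replicate 1 for Bcl2, leaving out any 1 WT library moved each member's fold change less than leaving out either cKO library. For Bcl2l1, Mcl1 and Bcl2l2 the sign stayed negative in all of these fits, and for Bcl2, Bax, Bak1 and Bok it did not.

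**Figure D4:**
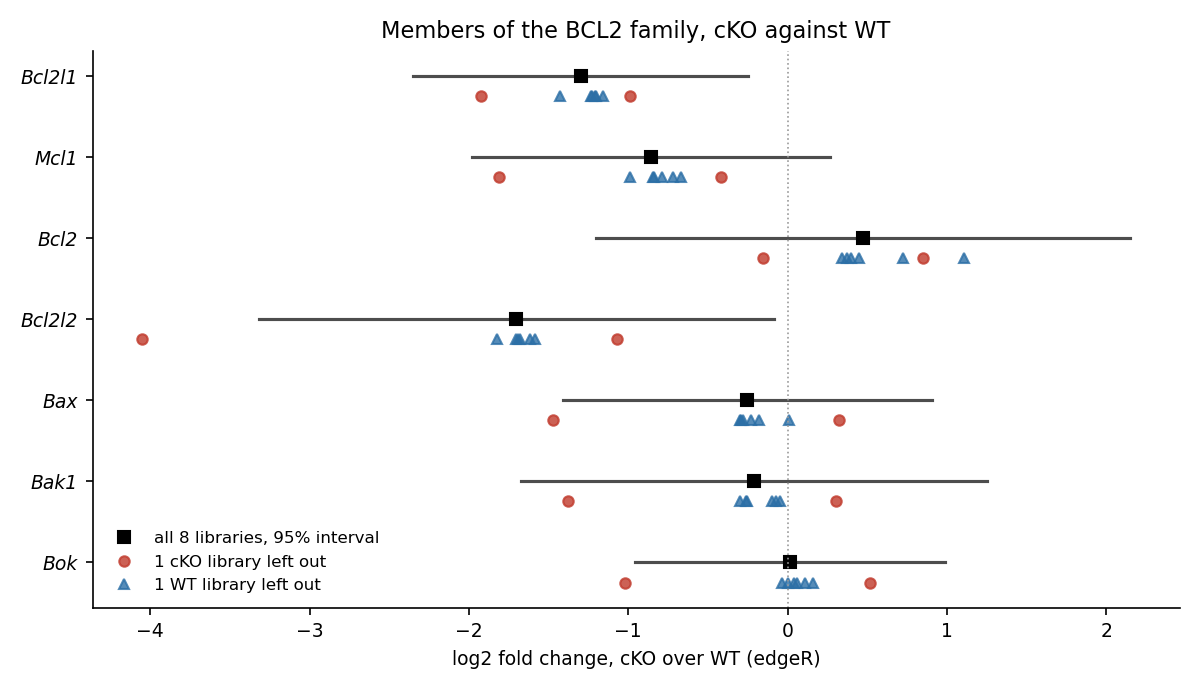
Log2 fold change of cKO over WT for each member from edgeR (square, with the 95% interval), and the values with 1 cKO library (red circles) or 1 WT library (blue triangles) left out. The intervals of Bcl2l1 (-2.35 to -0.25) and Bcl2l2 (-3.32 to -0.09) lay below 0, though neither gene passed the adjusted threshold.

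Other genes of the pathway were taken from lists of known partners, and edgeR called 0 of their genes at an adjusted p under 0.05 (0% of all genes were called). DESeq2 called 0 as well, where it called 3.98% of all genes with an adjusted p. It gave one to 1 of 1 tested other anti-apoptotic gene, 1 of 5 BH3-only genes, 9 of 10 outer membrane partners, 8 of 10 released proteins and targets, 3 of 5 Mcl-1 turnover genes and 8 of 8 transcription factors, so it could call none of the rest. Of the other anti-apoptotic genes, Bcl2a1a, Bcl2a1b and Bcl2a1d had 0 reads in all 8 libraries, and Bcl2l10 was the one tested. Bcl2l10, which is also expressed in oocytes, had 6.60 and 1.37 CPM in cKO and a median of 18.2 CPM in WT, where WT replicates 2 and 6 held 167 and 306 CPM. Its log2 fold change was -4.23 ± 1.81 (SE, edgeR adjusted p = 0.381). The oocyte markers summed to 505 and 1772 CPM in those 2 libraries and to at most 169 CPM in the others.

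Of 8 BH3-only genes, whose proteins activate the effectors or block the anti-apoptotic members, 5 were tested, 3 with a log2 fold change below 0 and 2 above it. Bad, which encodes a binder of Bcl-XL, had 16.8 and 10.9 CPM in cKO, against 10.99, 11.2, 42.5, 90.4, 83.8 and 75.5 CPM in WT replicates 1 to 6. WT replicates 1 and 2 lay at the level of the cKO libraries and the other 4 above it (log2 fold change -1.89 ± 0.85, SE, edgeR adjusted p = 0.397). Bcl2l11, which encodes Bim, had 18.3 and 2.73 CPM in cKO and from 17.7 to 25.7 CPM in WT (log2 fold change -0.94 ± 0.66, SE, edgeR adjusted p = 0.563). In the libraries numbered 1 and 2 alone the log2 fold change was 0.40 for Bad and -1.02 for Bcl2l11. With detected genes as a covariate it was -0.10 for Bad and -0.31 for Bcl2l11. Bbc3, Pmaip1 and Bmf were too low to be tested, with 0, 1 and 6.02 reads in cKO and 11, 16.6 and 24 in WT.

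The list of 10 genes for partners of the effectors at the outer membrane also holds Tmbim6 and Bcap31, whose proteins reside in the endoplasmic reticulum, and Dnm1l, which encodes a cytosolic fission GTPase. Of the 10, 9 had a log2 fold change below 0, against 52.7% of all genes, with a median log2 fold change of -1.18, against -0.08 over all genes. At an unadjusted p under 0.05 there were 5 of 10, all lower, against 8.89% of all genes, and 3 of 10 were lower with no overlap, against 6.41%. Vdac1, the most studied of the outer membrane channels, had 37.0 and 38.2 CPM in cKO, against 40.1, 83.6, 107.6, 225.8, 194.3 and 195.3 CPM in WT replicates 1 to 6 (log2 fold change -1.91 ± 0.65, SE, edgeR adjusted p = 0.369). WT replicate 1 lay just above the cKO libraries. It was also low in the summed granulosa markers (3289 CPM). Of WT it was lowest in Fshr, Inha, Inhba, Cyp19a1, Hsd17b1, Fst and Nr5a2, though not in Foxl2, Amh or Esr2. The part of the markers in these values was not tested. Tmbim6, which encodes Bax inhibitor 1, had 119 and 50.5 CPM in cKO and from 102 to 386 CPM in WT (log2 fold change -1.57 ± 0.58, SE, edgeR adjusted p = 0.369). In the libraries numbered 1 and 2 alone the log2 fold change was -0.60 for Vdac1 and -0.67 for Tmbim6. With detected genes as a covariate it was -0.89 for Vdac1 and -0.70 for Tmbim6.

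Of 10 genes for proteins released through the pores and for their targets, 8 had a log2 fold change below 0, against 52.7% of all genes, with a median of -1.13, against -0.08. At an unadjusted p under 0.05, 3 of 10 were lower, against 8.89% of all genes. Aifm1, which encodes apoptosis-inducing factor, had 46.2 and 25.9 CPM in cKO, against 46.7, 94.6, 81.1, 70.3, 88.1 and 131.8 CPM in WT replicates 1 to 6 (log2 fold change -1.23 ± 0.49, SE, edgeR adjusted p = 0.377). The groups did not overlap, with 46.2 CPM in cKO replicate 1 just under WT replicate 1. Cycs, which encodes cytochrome c, had 27.9 and 34.2 CPM in cKO and from 22.0 to 148 CPM in WT (log2 fold change -1.51 ± 0.61, SE, edgeR adjusted p = 0.378). WT replicate 1, with summed granulosa markers at 3289 CPM, was the lowest WT library for both Aifm1 and Cycs. In the libraries numbered 1 and 2 alone the log2 fold change was -0.86 for Aifm1 and -0.65 for Cycs. With detected genes as a covariate it was -1.17 for Aifm1 and -0.53 for Cycs. The part of the markers was not tested.

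Of 5 genes that set the turnover of Mcl-1 protein, 4 had a log2 fold change below 0, against 52.7% of all genes. The median was -0.75, against -0.08 over all genes. Among the 4, Fbxw7 was at -0.05, and at 0.10 with DESeq2's size factors. With no overlap, 2 of 5 were lower, against 6.41% of all genes, and 1 was higher, against 6.02%. The higher one was Huwe1, with 450.1 and 550.5 CPM in cKO and from 211 to 429 CPM in WT (log2 fold change 0.72 ± 0.43, SE, edgeR adjusted p = 0.508). March5, a ubiquitin ligase gene of the outer membrane, had 6.09 and 6.83 CPM in cKO and from 10.1 to 27.9 CPM in WT, with no overlap (log2 fold change -1.66 ± 0.69, SE, edgeR adjusted p = 0.380). Usp9x, which encodes a deubiquitinase of Mcl-1, had 79.2 and 73.8 CPM in cKO and from 87.4 to 173 CPM in WT, with no overlap (log2 fold change -0.75 ± 0.41, SE, edgeR adjusted p = 0.468). In the libraries numbered 1 and 2 alone the log2 fold change was 0.45 for Huwe1, -1.54 for March5 and -0.34 for Usp9x. With detected genes as a covariate the values were -0.17, -1.31 and -0.66. Of 8 genes for transcription factors known to act on Bcl2l1, 4 had a log2 fold change below 0 and 4 above it, and none had an unadjusted p under 0.05. Stat5b had 44.1 and 32.8 CPM in cKO and from 47.3 to 100.1 CPM in WT, with no overlap (log2 fold change -0.93 ± 0.45, SE, edgeR adjusted p = 0.419). Nfkb1 had 86.3 and 53.3 CPM in cKO and from 14.2 to 46.2 CPM in WT, higher with no overlap (log2 fold change 0.93 ± 0.46, SE, edgeR adjusted p = 0.431), where 6.02% of all genes were.

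**Figure D5:**
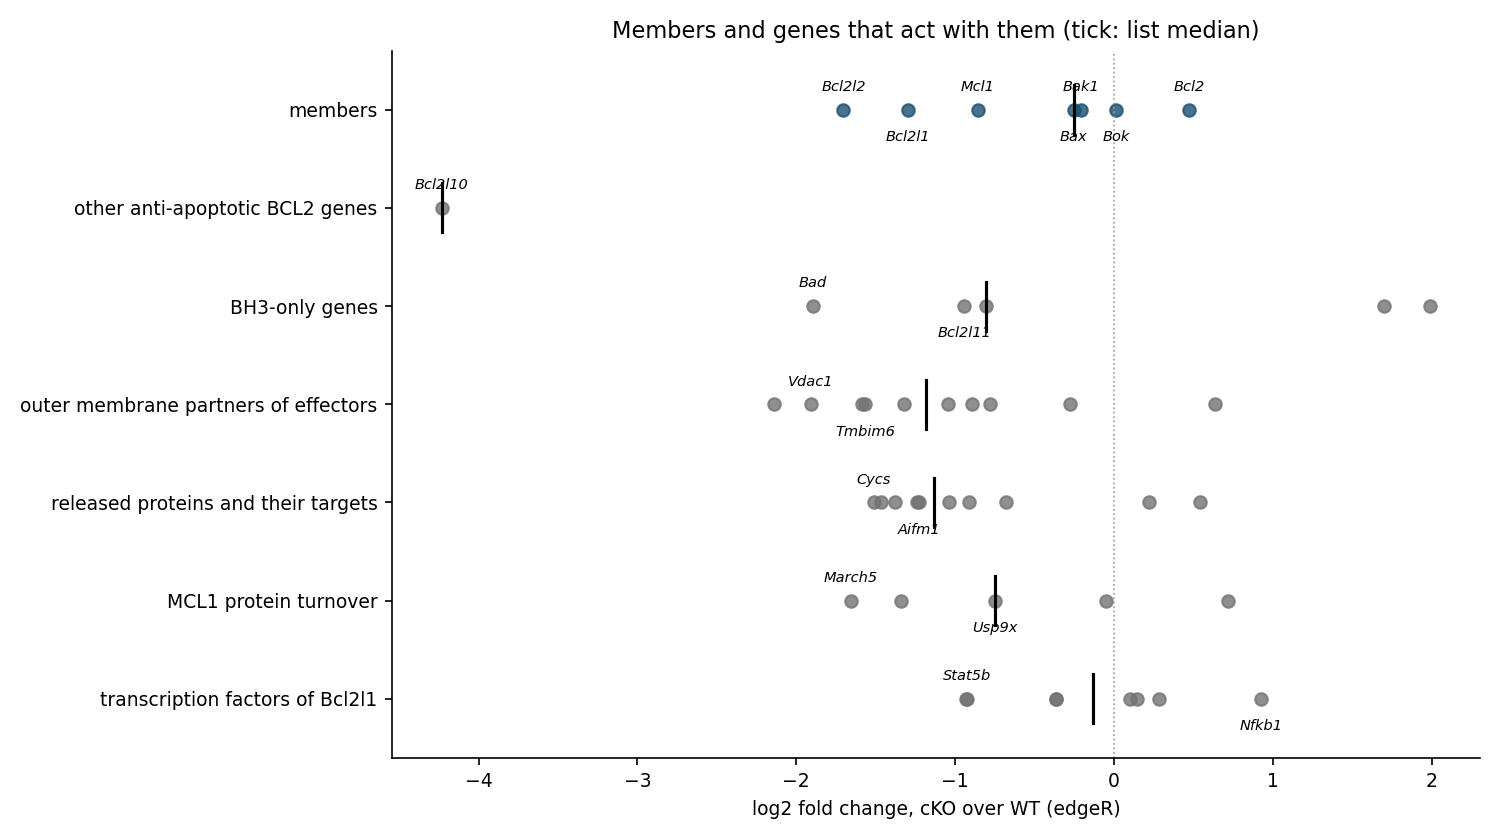
Log2 fold change of cKO over WT (edgeR) for the 7 members and for the tested genes of each partner list, with a tick at the list median. The medians were -0.25 for the members, -1.18 for the outer membrane partners (with Tmbim6, Bcap31 and Dnm1l among them), -1.13 for released proteins and their targets and -0.13 for the transcription factors of Bcl2l1, against -0.08 over all genes.

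The genes most like Bcl2l1 and Mcl1 across the 8 libraries were found by the root mean square difference of log2(CPM + 1), each gene centred on its own mean, among 7569 genes with a mean of at least 20 CPM, predicted Gm and Rik gene models left out. For Bcl2l1 they were Arpc4, a subunit gene of the actin-branching Arp2/3 complex, at 0.14, Arl2bp at 0.16 and Ccdc124 at 0.17, where the median gene was at 0.78. Arpc4 had 131.9 and 65.6 CPM in cKO and from 134.6 to 312 CPM in WT, and its lowest WT library was replicate 1, as for Bcl2l1. For Mcl1 they were Arf3 at 0.15, Bmpr1a, a receptor gene for bone morphogenetic proteins, at 0.18 and Rab7, a small GTPase gene of late endosomes, at 0.20, where the median gene was at 0.77. All values share the same 8 libraries and their depth.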

How the data were processed

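Each of the 8 libraries had its own deposited table in the format of Salmon. Per the submitters' processing notes, HISAT2, Salmon and the genome mm10 were used, without versions or roles. The gene annotation they used was not given in these sources. The authors deposited estimated counts per gene row, which need not be whole, and TPM values, which Salmon scales by effective length. The deposited effective lengths were smaller than the length behind the TPM by a median factor of 3 in every library, so lengths were taken from reads over TPM. Of 36635 rows, 35087 carried gene names. The others, with transcript identifiers alone, held 0.435% to 0.739% of reads and were left out.

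Estimated counts were rounded and tested with edgeR 4.0.16 (R 4.3.3; filterByExpr with a minimum count of 10 and total of 15, TMM, quasi-likelihood test of cKO over WT, Benjamini-Hochberg over 15102 genes, threshold 0.05), after a test on simulated data. The common biological coefficient of variation was 0.699. DESeq2 1.42.0, limma 3.58.1 on log2(TPM + 1) and log2(TPM + 0.1), other scalings and filters, a replicate block and the omission of each library were alternatives. All 28 pairs of libraries differed beyond sampling noise (chi-square per degree of freedom 13.0 to 99.5).

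The members and lists were chosen with earlier results of these data known. From each partner list, the 2 genes with the smallest unadjusted p were named, along with the 3 genes most like Bcl2l1 and Mcl1. Bbc3, Pmaip1, Bmf and the Bcl2a1 genes were named as those of their lists that could not be tested. Huwe1, Fbxw7, Bcap31 and Dnm1l were tested and were named outside this rule. Huwe1 was named for groups that did not overlap, and Fbxw7 for a sign that depended on the scaling. Both choices were made after the data were seen. Bcap31 and Dnm1l were named for where their proteins reside. Promoter windows were those of RefSeq on GRCm38.p6.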

Additional observations from a re-analysis of the deposited data

Results flagged for a closer look

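Bax in WT replicate 2 stood at 455.0 CPM, far from the other 5 WT libraries, which lay between 166 and 262 CPM. Its gap to the nearest library was 0.669 of the whole WT range, above Dixon's critical value of 0.625 for 6 samples. The test was run for 10 items, and chance flags about 1 in 20 groups. In TPM the same library was also the highest of WT for Bax, at 446 against 370 TPM in WT replicate 6. Without it the log2 fold change of cKO over WT was 0.01.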

How the results depend on the processing

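Bcl2l1, Mcl1 and Bcl2l2 had a negative log2 fold change in 21 of 21 alternatives, but not of one size. With detected genes as a covariate Mcl1 was -0.144, against -0.856, and Bcl2l2 -0.761, against -1.703. The alternatives refit the same 8 libraries or part of them, so a shared sign is not independent support. No member passed the adjusted threshold in any alternative. For Bcl2l1 the adjusted p ranged between 0.0947 and 1, and the unadjusted p was under 0.05 in 17. Over all genes, edgeR called 0 genes, against 478 with no filter on low counts, 274 with DESeq2, 5 and 12 with limma on log2(TPM + 1) and log2(TPM + 0.1), 1 with the replicate block, and 0 to 1 with 1 library left out. The 1855 genes at an unadjusted p under 0.05 became 3486 with no filter, 490 with detected genes as a covariate, 179 with the replicate block, 292 in the libraries numbered 1 and 2 alone, and 865 (without cKO replicate 2) to 3015 (without WT replicate 1) with 1 library left out. Bok turned negative with no filter (-0.034), on log2(TPM + 1) (-0.087) and log2(TPM + 0.1) (-0.089), with the replicate block (-0.37) and in libraries 1 and 2 alone (-0.147), and spanned -1.02 to 0.517 with 1 library left out. Bak1 was 0.187 with limma-voom and spanned -1.376 to 0.302. Bax spanned -1.474 to 0.32. Bcl2 was -1.133 with the covariate and -0.221 in libraries 1 and 2 alone, and spanned -0.155 to 1.107. The cause of these shifts was not tested. Same-numbered libraries of the groups had deviations that correlated at -0.296 and -0.166. With 2 cKO libraries, their deviations from the cKO mean mirror each other. The check therefore cannot decide whether the numbers pair libraries. Under the block Bcl2l1 was -0.918 (edgeR unadjusted p = 0.348) and Mcl1 -0.405. Where 1 cKO library was left out, the lone one was assumed to vary like WT. With 2 cKO libraries, 1 of them shallow, the intervals of Bax, Bak1 and Bok all include log2 changes from -0.957 to 0.904.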
